A study of Saccharomyces cerevisiae with 23 samples.

Results

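The genes described here are the 38 genes of Saccharomyces cerevisiae whose standard symbols begin with RPA, RPB, RPC, RPO or RRN followed by a number, the naming families of the nuclear RNA polymerases and of the RNA polymerase I factors. All 38 such genes of the R64 annotation were measured, among 6334 features of a spotted-oligo array. By role they were 7 subunits of RNA polymerase I (Pol I), 7 initiation factors of Pol I, 7 subunits of Pol II, 9 subunits of Pol III, 2 subunits shared by Pol I and Pol III, 5 subunits shared by all 3 enzymes, and RPO41. The last of these fits the naming rule but encodes the RNA polymerase of mitochondria. RET1, the second-largest subunit of Pol III, has a name outside the rule and was kept apart.

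The samples were 23 mutation accumulation (MA) lines of budding yeast, each measured as total RNA from an unsynchronized log-phase culture in rich medium (YPD). MA lines are strains propagated separately so that mutations collect with little selection. Each line was hybridised against RNA of a single strain, YPS183, also grown in YPD, and that strain is the common denominator or numerator of every ratio. The table holds 1 column for each line and none for an ancestor of the lines, so values are compared among lines and with 0, where line and YPS183 would give equal signal.

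Eukaryotes divide nuclear transcription among 3 enzymes. Pol I makes the large ribosomal RNA precursor, Pol II makes messenger RNA, and Pol III makes transfer RNA and the smallest ribosomal RNA. Pol I and Pol III activity follows growth rate in yeast, and the genes for their subunits are known to be expressed together with the genes for ribosome assembly. Subunit names do not always give the enzyme: RPB5, RPO26, RPB8, RPB10 and RPC10 encode subunits present in all 3, and RPC40 and RPC19 encode a pair used by Pol I and Pol III.

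Values are given as log2 ratios with the sign as deposited. The sources used here give neither the log base nor the channel on top, so "positive" and "negative" refer to the deposited sign and not to a known direction between line and YPS183. Array medians lay between -0.018 and 0.018 and array SDs between 0.245 and 0.583, the largest in line 10. The leading principal component of the whole table held 44.0% of its variance. Of 253 pairs of arrays, 28 correlated below -0.3 over all features (lowest -0.636, lines 4 and 44), although the labels give every line the same dye, and no sign was turned. Lines 1 and 45 were the most alike pair (r = 0.899). No line has a second column, so the error of a single value was not measured and the spread between lines includes it. RNA was taken from whole cultures, in which a change in the share of cells and a change in RNA per cell cannot be told apart.

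Across lines, the mean differed from 0 for RPO21 and RRN5 only, by limma's moderated test with Benjamini-Hochberg adjustment over all features at 0.05. These are 2 of 38 genes (5.26%), against 584 of 6334 features (9.22%) in the whole table. The positive share of the whole table was 3.99% and the negative share 5.23%. Without adjustment, 5 of the 38 genes had p under 0.05, against 24.3% of all features. The share of called means among the polymerase genes was thus no higher than in the table as a whole. Without a dye swap or an ancestor, a mean away from 0 includes any dye effect on that gene. It also includes any difference between YPS183 and the ancestor of the lines. These parts were not tested, and the SE over lines does not cover them.

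RPO21, the largest subunit of Pol II, which carries the C-terminal repeat domain, ran between -0.69 in line 22 and 0.43 in line 42, with a median of -0.18. It was positive in 5 of 23 lines. Its mean was -0.23 ± 0.06 (SE, n = 23; limma, adjusted p = 0.0209). RRN5, a subunit of the upstream activation factor that binds the ribosomal DNA promoter, ran between -0.18 in line 8 and 0.42 in line 44, with a median of 0.15. It was positive in 18 of 23 lines, and its mean was 0.13 ± 0.04 (SE, n = 23; limma, adjusted p = 0.0287). Leaving out line 21, 24 or 44 gave RRN5 an adjusted p of 0.0509, 0.0534 or 0.0515. RPO21 kept its call without each line in turn.

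RPA190, the largest subunit of Pol I, had the most negative mean of the 38 genes but also the second-highest spread. Its mean of -0.36 ± 0.13 (SE, n = 23) did not pass the test (limma, adjusted p = 0.0910). It passed with arrays scaled to a common spread (limma, adjusted p = 0.0401), quantile normalized (0.0316) or given array weights (0.0118). Those weights were estimated by limma from the same values and not from a measure of array quality. RPA190 also passed without line 6 (limma, adjusted p = 0.0457) or line 10 (0.0433). The 4 other subunits specific to Pol I with negative means of at least 0.1 in size (RPA49, RPA135, RPA14 and RPA43) had adjusted p between 0.180 and 0.531.

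**Figure D1:**
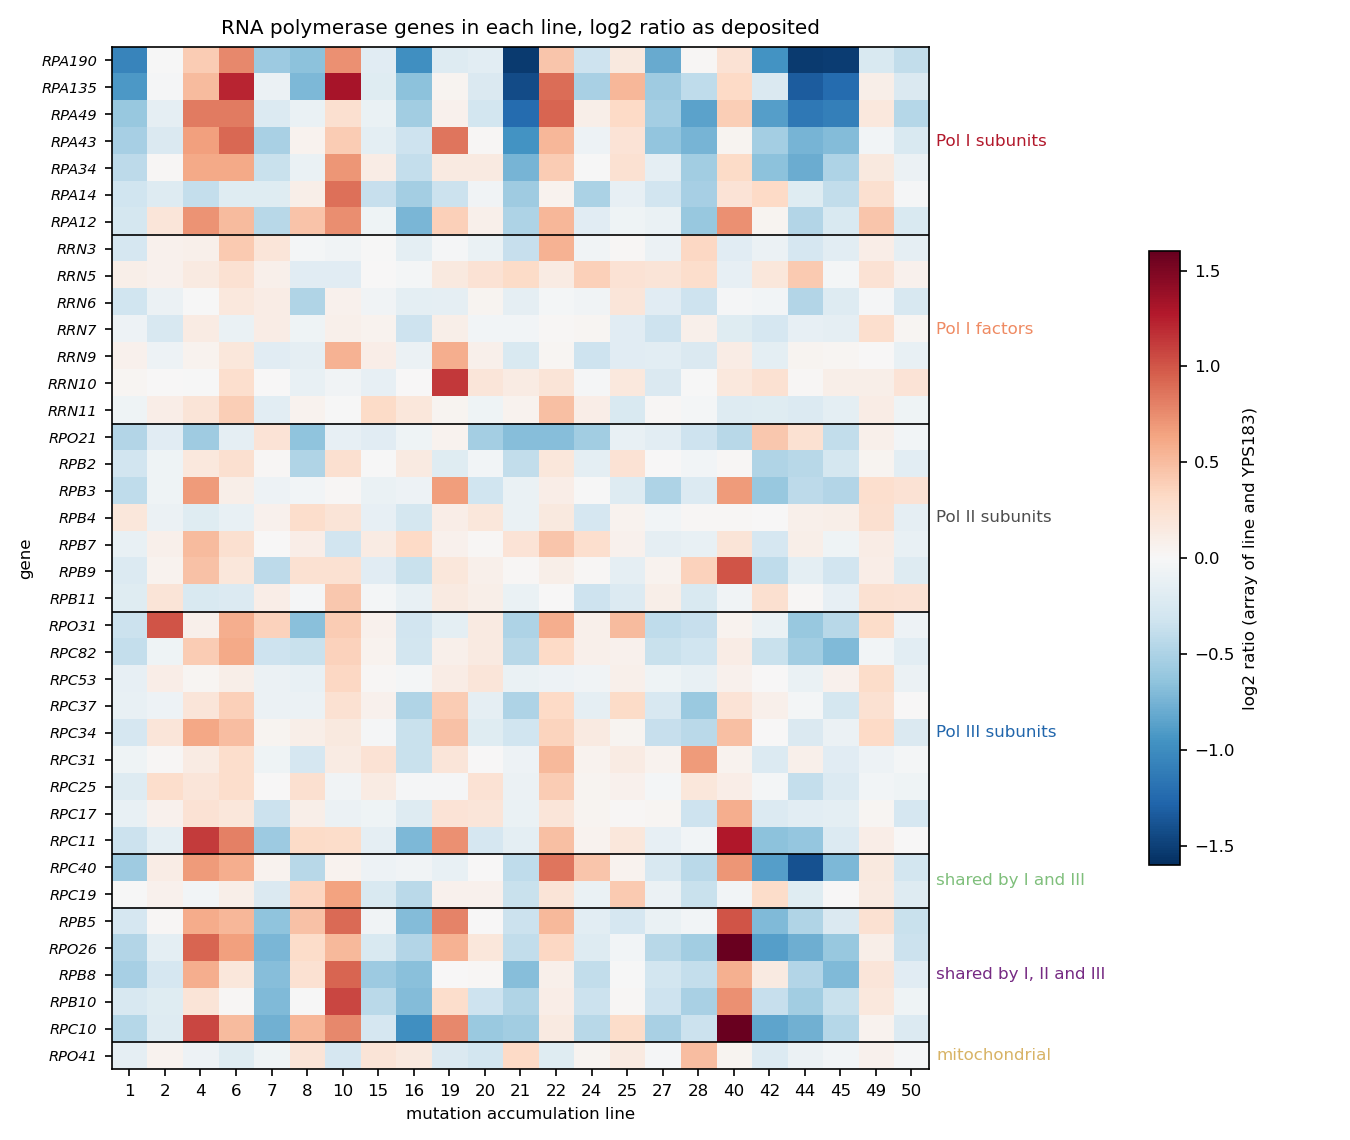
Log2 ratio, with the deposited sign, of each of the 38 genes (rows, grouped by enzyme) in each of 23 mutation accumulation lines (columns). Colour runs over the same range on both sides of 0, and most rows of Pol I and of the subunits shared by all 3 enzymes share their sign within a line, with exceptions such as RPA14 in lines 4, 6, 19 and 42, while most rows of Pol II and of the Pol I factors stay pale.

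The enzymes differed in how far their genes moved between lines. The median SD over lines was 0.529 for the 7 Pol I subunits, 0.511 for the 5 subunits shared by all enzymes, 0.401 for the 2 shared by Pol I and Pol III, 0.282 for the 9 Pol III subunits, 0.235 for the 7 Pol II subunits and 0.196 for the 7 Pol I factors. The median over all 38 was 0.313, against 0.256 over all 6334 features, and 23 of the 38 lay above the latter value. All 7 Pol I subunits and all 5 common subunits lay above it, as did 5 of 9 Pol III subunits, 3 of 7 Pol II subunits and 1 of 7 Pol I factors. These spreads are described without a test, since the sets of genes are fixed by name and the genes of an enzyme share the same 23 arrays.

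**Figure D2:**
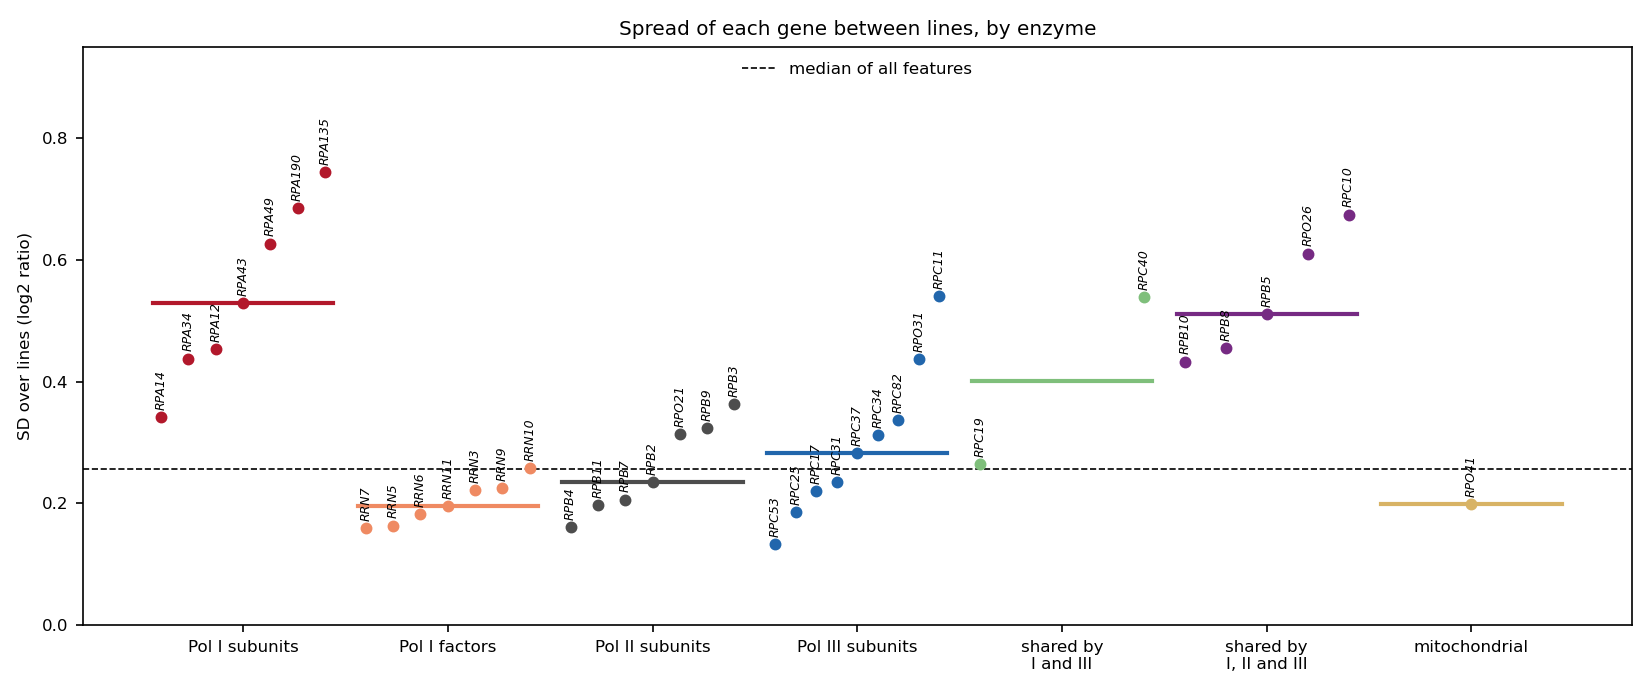
Standard deviation over 23 lines (log2 ratio) of each gene, grouped by enzyme, with a bar at each group's median and a dashed line at the median of all features (0.256). The highest point is RPA135 (0.744) and the lowest is RPC53 (0.133).

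Among the Pol I subunits, RPA135 and RPA190 form the active site. RPA135 had values between -1.43 in line 21 and 1.32 in line 10, with a median of -0.23 and an SD of 0.744. RPA190 had values between -1.53 in line 44 and 0.76 in line 6, with a median of -0.25 and an SD of 0.685. RPA190 was also at -1.53 in line 21 and at -1.52 in line 45, so its low end was shared by 3 lines. RPA49 and RPA34, which form a heterodimer on the core, had SDs of 0.627 and 0.438. RPA43, the stalk subunit that binds the initiation factor Rrn3, had an SD of 0.529, and its stalk partner RPA14 had the lowest of the 7 (0.341). RPA12, which takes part in RNA cleavage, had an SD of 0.453.

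The Pol I subunits mostly moved together, with RPA14 the loosest of them. All 7 were positive in lines 10, 22 and 40, and none was positive in lines 1, 7, 16, 21, 27, 44, 45 and 50. Their median over the 7 genes was lowest in line 21 (-0.96) and highest in line 6 (0.76), with a median line at -0.16. Their mean pairwise Pearson correlation over the 23 lines was 0.722, against 0.001 over all features with a current gene, and the 21 pairs ran between 0.306 (RPA43 and RPA14) and 0.936 (RPA190 and RPA135). The average over all features mixes positive and negative values and is no level for a set of genes. Of those features, 22.0% correlated above 0.5 with the Pol I median. Every such correlation is a description, since all genes of a line share a single array and its normalization. With the leading component of the whole table removed, an alternative added after the data were seen, the mean fell to 0.0856 and that of RPA190 with RPA135 to 0.508. The component itself correlated between 0.908 and 0.948 with RPA190, RPA135, RPA49, RPA43 and RPA34, at 0.804 with RPA12 and at 0.430 with RPA14. Its removal takes out much of these genes' own pattern, so the lower values do not measure how tightly they are tied. RPA43 and RPA190 are neighbouring genes on chromosome XV, on opposite strands, and correlated at 0.794.

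The 7 Pol I factors were steadier than the subunits of the enzyme they recruit. Their SDs ran between 0.159 (RRN7, of the core factor) and 0.257 (RRN10, of the upstream activation factor), and their mean pairwise correlation was 0.156. RRN9, also of the upstream factor, had the second-highest SD (0.225), and RRN3, which brings Pol I to the promoter, had 0.222. RRN6 and RRN3 followed the Pol I subunits most closely among them (mean r = 0.520 and 0.481 with the 7 subunits). RRN5 had a negative mean correlation with those subunits (mean r = -0.262).

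RRN10 in line 19 was the single departure of a line among all 38 genes. A departure was called where limma gave an adjusted p under 0.05, over all features and lines together, and the line lay at least 1 away from the average of the remaining 22. Such calls made up 1 of 874 pairs of gene and line (0.114%), against 99 of 145682 pairs (0.068%) in the whole table, of which 68 were in line 10. At the level of genes, 1 of 38 (2.63%) had a departure, against 1.56% of all features. RRN10 was at 1.13 in line 19, against a mean of 0.06 over the other lines, whose values ran between -0.23 and 0.27 with an SD of 0.13. The difference was 1.07 ± 0.15 (SE; limma, adjusted p = 0.00195). With arrays scaled to a common spread the difference was 0.89 (limma, adjusted p = 0.0236), under the size required.

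The genes on either side of RRN10 on chromosome II were not as far from the other lines in line 19. LSM2, next to it, was at 0.25 in line 19, against a mean of -0.04 over the other lines. NCL1, on its other side, was at 0.35, against -0.17. Counting 3 genes to each side, the highest was RPL19B, a ribosomal protein gene, at 0.72, and the lowest was PIM1 at -0.08. RPL19B had a mean of -0.27 over the other lines, with an SD of 0.87, and line 19 ranked 4 from the highest for it. The median of chromosome II in line 19 was 0.07. RRN9, another subunit of the same factor, was at 0.59 in line 19, its highest value, which was not called (limma, adjusted p = 0.569), while RRN5 was at 0.15.

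**Figure D3:**
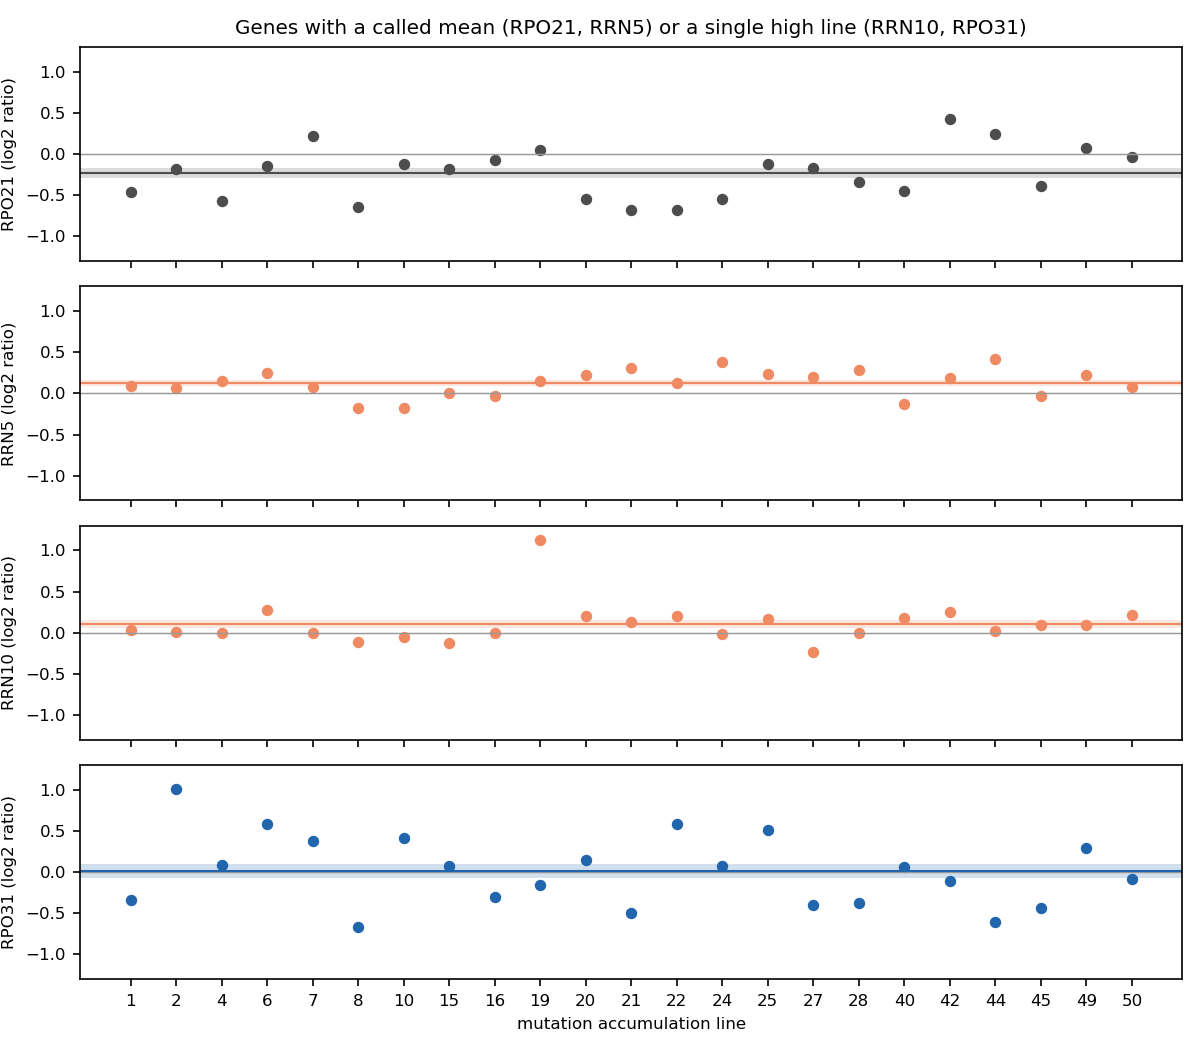
Log2 ratio in each line of RPO21 and RRN5, whose means over lines were called, and of RRN10 and RPO31, which each have a single high line. Points are lines, the coloured line is the mean over 23 lines and the band is its standard error. RRN10 is at 1.13 in line 19, and RPO31 is at 1.01 in line 2.

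The Pol II subunits had small spreads and little in common. RPB3, an assembly subunit, had the highest SD of the 7 (0.363), with values between -0.60 in line 42 and 0.69 in line 40 and a median of -0.08. RPB9, a zinc-ribbon subunit that affects start site choice and fidelity, had the next highest (0.324) and ran between -0.42 in line 7 and 1.01 in line 40, with a median of 0.05. The value in line 40 differed by 1.02 from the mean of the other lines and was not called (limma, adjusted p = 0.210). Of the genes next to RPB9, MNP1 was also high in line 40 (1.02, against a mean of 0.17 over the other lines). AFT1, on the other side, was at -0.13 there. RPB2, the second-largest subunit, had an SD of 0.235, and RPB4, RPB7 and RPB11 had 0.160, 0.206 and 0.198. The mean pairwise correlation of the 7 was 0.044, between -0.524 and 0.646 over pairs. RPO21 and RPB2, which form the active site together, correlated at -0.048, and the stalk pair RPB7 and RPB4 at -0.381.

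The median of the 7 Pol II genes stayed between -0.28 in line 45 and 0.21 in line 10. Per line, the Pol I median minus the Pol II median ran between -0.85 in line 21 and 0.67 in line 6. The medians of the 2 enzymes had the same sign in 19 of 23 lines and correlated at 0.714 (Spearman's rho 0.638), so the Pol II median leaned the same way as that of Pol I over a narrower range. Each of the 7 Pol II subunits had a higher mean correlation with the Pol I subunits than with its own enzyme's. Pairs within Pol II averaged 0.044, against 0.722 within Pol I, and the share of all features with that order was not counted. RPB2 had the highest with the Pol I subunits (mean r = 0.585, against 0.115 with its own enzyme's). RPO21 did not follow the Pol I subunits (mean r = -0.084).

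Pol III lay between the other enzymes. RPC11, the subunit for RNA cleavage and reinitiation, had the highest SD of its 9 genes (0.541), with values between -0.71 in line 16 and 1.28 in line 40 and a median of -0.05. RPO31, the largest subunit, had the next (0.437) and ran between -0.67 in line 8 and 1.01 in line 2, with a median of 0.06. RPO31 in line 2 exceeded the mean of the other lines by 1.05 but was not called (limma, adjusted p = 0.731), and its neighbours TRS33 and RPT5 were at 0.06 and 0.13 there. RPC53, which with RPC37 acts in termination, had the lowest SD of all 38 genes (0.133), between -0.14 in line 1 and 0.34 in line 10.

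The initiation trimer of Pol III was uneven. RPC82, RPC34 and RPC31 had SDs of 0.337, 0.312 and 0.235, and RPC82 correlated at 0.722 with RPC34 and 0.461 with RPC31, while RPC34 and RPC31 correlated at 0.191. RPC31 was high in line 28 (0.69), where RPC34 and RPC37 had their lowest values (-0.43 and -0.60). That value of RPC31 was not called (limma, adjusted p = 0.504). The stalk pair RPC25 and RPC17 correlated at 0.478, and RPC37 with RPC53 at 0.495. With the leading component removed, they were at 0.195 and 0.168. RPC82 resembled the Pol I subunits (mean r = 0.794) more than those of Pol III (0.627), as did each of the other Pol III genes. Here too the share of all features was not counted.

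Over the 36 pairs of Pol III genes the mean correlation was 0.471, and with the leading component removed it was 0.0680. Their correlation with Pol I genes, 0.593 on average, was higher than that among themselves. The medians of Pol I and Pol III had the same sign in 19 of 23 lines and correlated at 0.907 (Spearman's rho 0.938). The Pol III median ran between -0.32 in line 28 and 0.38 in line 6, a narrower range than that of Pol I. Pol I minus Pol III ran between -0.80 in line 21 and 0.49 in line 10.

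The subunits shared by Pol I and Pol III did not move as a pair. RPC40 had an SD of 0.539, with values between -1.39 in line 44 and 0.86 in line 22 and a median of -0.06, and RPC19 had 0.264, with values between -0.43 in line 16 and 0.64 in line 10. They form an assembly heterodimer but correlated at 0.152, and at -0.527 with the leading component removed. Their mean correlations with the Pol I subunits were 0.654 for RPC40 and 0.565 for RPC19. RPB3 and RPB11, their counterparts in Pol II, had a Spearman correlation of 0.0257.

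The 5 subunits shared by all 3 enzymes were the most tightly tied of the groups. Their 10 pairs correlated between 0.770 and 0.929, with a mean of 0.851, and of 0.636 once the leading component was removed. The common subunits correlated between 0.747 and 0.790 with that component, below each Pol I subunit but RPA14. Values after its removal therefore do not compare the groups on equal terms. RPC10, a small zinc-binding subunit, ran between -0.98 in line 16 and 1.58 in line 40, with a median of -0.27 and an SD of 0.674. RPO26, whose product lies near the base of the clamp, ran between -0.89 in line 42 and 1.58 in line 40, with a median of -0.21 and an SD of 0.610. Neither value in line 40 was called (limma, adjusted p = 0.570 and 0.397). RPB5, RPB8 and RPB10 had SDs of 0.511, 0.455 and 0.433, and their highest values lay in line 40 (1.01) for RPB5 and in line 10 for RPB8 (0.94) and RPB10 (1.07).

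In line 40 the common subunits had a higher median than each enzyme's own subunits, although single genes overlapped. The median of the 5 common genes was 1.01 there, against 0.30 for Pol I, 0.12 for Pol III and 0.02 for Pol II. The common genes ran between 0.57 (RPB8) and 1.58 there, and RPC11 (1.28), RPB9 (1.01), RPA12 (0.73), RPB3 (0.69) and RPC17 (0.59) lay within that range. In line 22 the common genes were below Pol I, at 0.15 and 0.53. In line 8 the common genes were at 0.30 and Pol I at -0.10. Over lines, the common minus the Pol I median ran between -0.38 in line 22 and 0.70 in line 40, and the medians had the same sign in 20 of 23 lines.

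**Figure D4:**
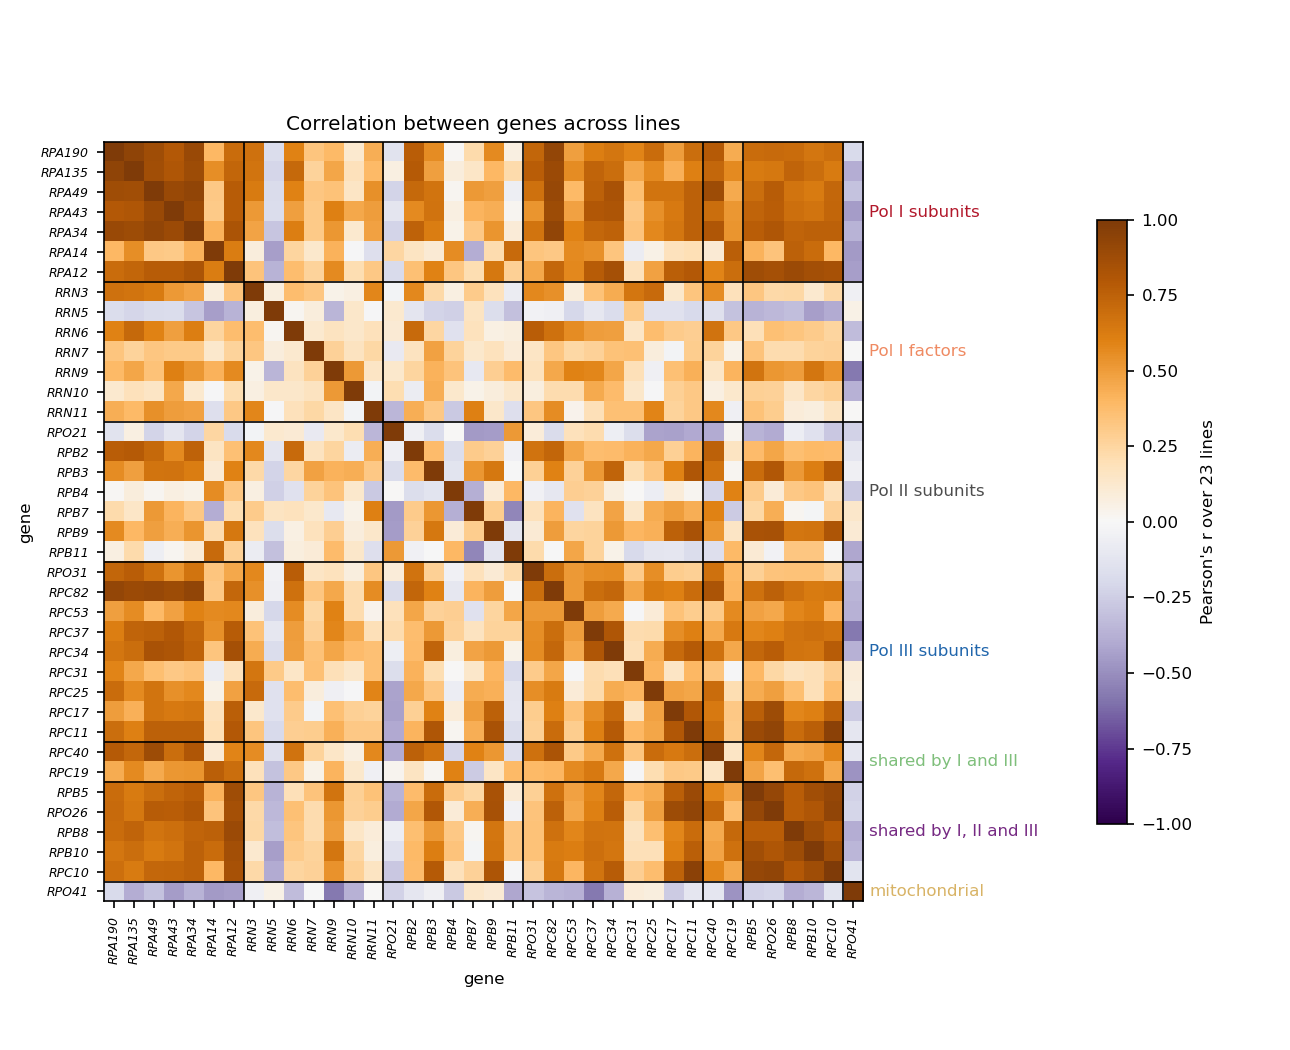
Pearson correlation between each pair of the 38 genes over 23 lines, ordered by enzyme. The blocks of the Pol I subunits (mean 0.722) and of the subunits shared by all enzymes (mean 0.851) are the strongest on the diagonal, and the Pol II block (mean 0.044) is the weakest.

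Many subunits followed the common subunits more closely, by mean correlation, than the other genes of their own enzyme. This held for 2 of 7 Pol I subunits (RPA14 and RPA12), 6 of 7 Pol II subunits (all but RPO21) and 6 of 9 Pol III subunits (all but RPO31, RPC31 and RPC25). The share among all features was not counted. The sets compared also differ: pairs averaged 0.851 within the common subunits, 0.722 within Pol I, 0.471 within Pol III and 0.044 within Pol II. The pattern was not particular to the common subunits. Every Pol II and Pol III subunit also had a higher mean correlation with the Pol I subunits than with its own enzyme's. Pol III genes averaged 0.593 with Pol I genes and 0.560 with the common subunits. RPC11 correlated at 0.844 on average with the 5 common subunits, against 0.540 with the other Pol III genes, and at 0.947 with RPC10, the highest of all 703 pairs. RPB9 correlated at 0.761 with the common subunits and at 0.122 with the other Pol II genes. RPA12 correlated at 0.860 with the common subunits and at 0.738 with the other Pol I genes. Of subunits with other roles, RPB3 had 0.680 with the common subunits and 0.207 with its own enzyme's, RPC17 had 0.714 and 0.490, RPC34 had 0.717 and 0.583, and RPA14 had 0.521 and 0.435. RPC11, RPB9 and RPA12 are the zinc-ribbon subunits of their enzymes, and their correlations with each other were as follows: RPB9 with RPC11 at 0.830, RPA12 with RPC11 at 0.794, and RPA12 with RPB9 at 0.646. After removal of the leading component the values were 0.783, 0.464 and 0.441.

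Across enzymes, the counterparts of the large subunits did not all behave alike. RPA190 and RPO31, the largest subunits of Pol I and Pol III, correlated at 0.727, while RPO21 of Pol II correlated at -0.138 with RPA190 and 0.0921 with RPO31. RPO31 and RET1, the active-site pair of Pol III, correlated at 0.807. RET1 had an SD of 0.388 and correlated at 0.810 with the Pol III median and at 0.859 with the Pol I median.

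RPO41, the mitochondrial enzyme, correlated negatively with the Pol I subunits, as RRN5 did among the Pol I factors. It ran between -0.30 in line 20 and 0.49 in line 28, with a median of -0.02 and an SD of 0.199. Its mean correlation with the Pol I subunits was -0.370, against -0.262 for RRN5. With the Pol I median, RPO41 correlated at -0.390 and RRN5 at -0.262. Both lay between the lower and upper quartiles of all features with a current gene (-0.420 and 0.441). RPO41 correlated at 0.409 with MTF1, the gene of its specificity factor.

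The polymerase medians were set beside those of 90 ribosome biogenesis genes, 138 genes of cytosolic ribosomal proteins and 29 genes of the general stress response. Across the 23 lines, the Pol I median correlated at 0.952 with the ribosome biogenesis median (Spearman's rho 0.979, and 0.950 without the 2 farthest lines), at 0.849 with the ribosomal protein median and at -0.897 with the stress median. The Pol III median gave 0.927, 0.708 and -0.861 in the same order. The Pol II median gave 0.658, 0.672 and -0.614. The Pol I factors gave 0.744, 0.311 and -0.772. Without the 2 lines farthest for each list they gave 0.614 (without lines 6 and 44), 0.510 (without 10 and 40) and -0.615 (without 6 and 22).

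The common subunits had another order. Their median correlated at 0.929 with the ribosomal protein median (Spearman's rho 0.915, and 0.895 without the 2 farthest lines) and at 0.754 with ribosome biogenesis. Gene by gene, all 5 common subunits were closer to ribosomal protein genes than to ribosome biogenesis genes. This held for 2 of 7 Pol I genes (RPA14 and RPA12), 4 of 7 for Pol II and 3 of 9 for Pol III (RPC53, RPC17 and RPC11). RPC53 was near a tie (0.509 and 0.502). Over all 38 genes, 17 were closer to ribosomal proteins. The share among all features was not counted, so these counts are description only. In line 40 the ribosomal protein median was 1.07 and the ribosome biogenesis median 0.07, and in line 6 they were 0.17 and 0.72. The common subunits were at 1.01 and 0.51 in these lines, and Pol I at 0.30 and 0.76.

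These relations rest in part on the component that runs through the whole table. Of all features with a current gene, 21.7% correlated above 0.5 with the ribosome biogenesis median and 19.4% with the ribosomal protein median. With the leading component removed, the common subunits kept 0.819 with ribosomal proteins and had -0.114 with ribosome biogenesis. With ribosome biogenesis, the Pol I factors then had 0.601, Pol III 0.566, the subunits of Pol I and Pol III 0.361, Pol I 0.352 and Pol II 0.156. As the groups followed the component to differing degrees, these values do not rank them. The relation with the stress median turned positive for Pol I (0.175), Pol II (0.244), the subunits of Pol I and Pol III (0.0728) and the common subunits (0.530), and stayed negative for Pol III and for the Pol I factors. The part of the stress state of the cultures in the polymerase values was not tested.

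**Figure D5:**
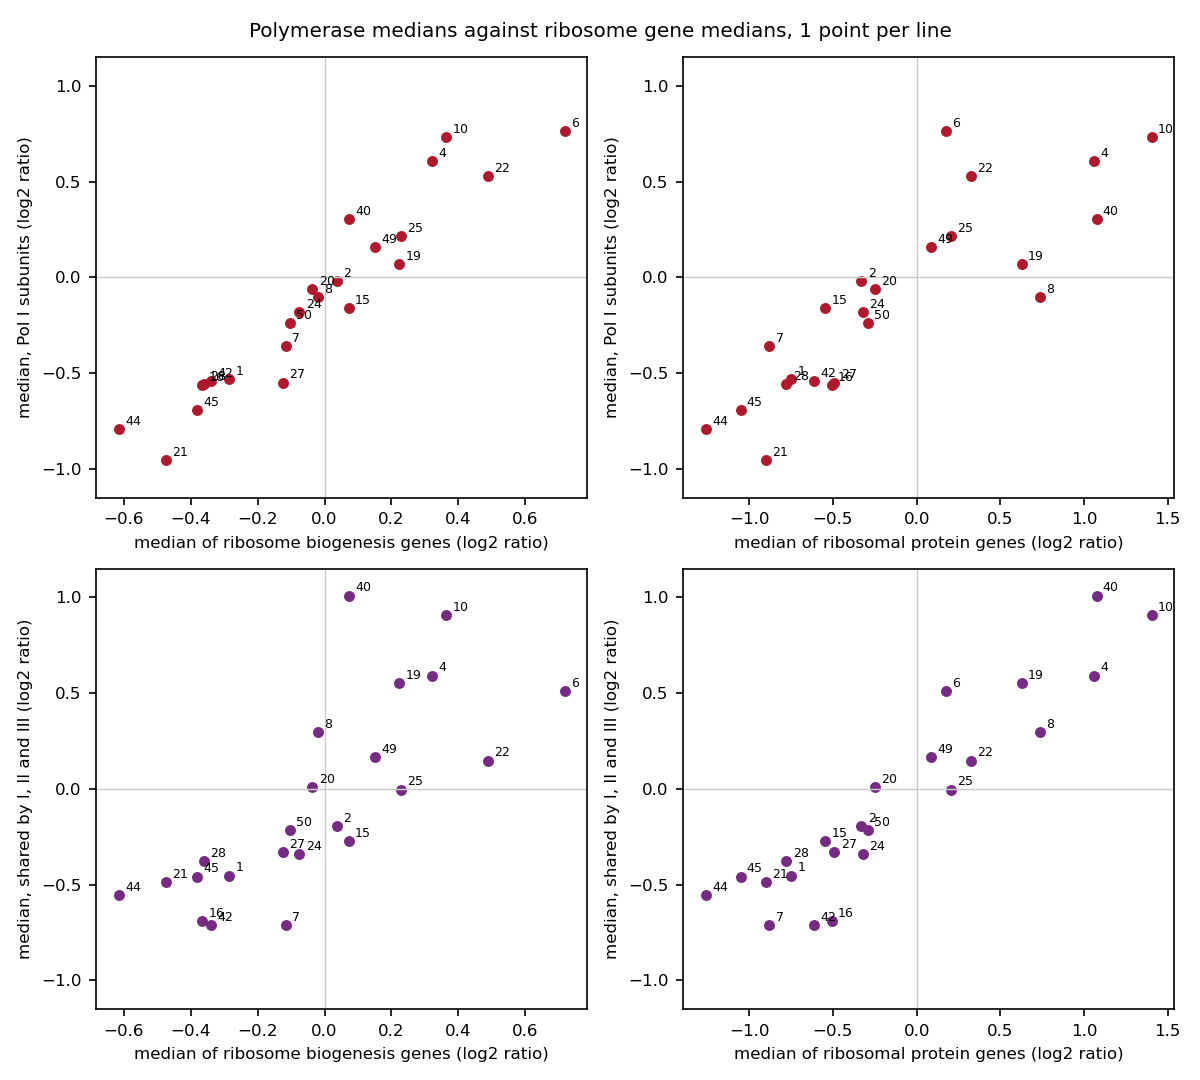
Median log2 ratio of the Pol I subunits (top) and of the subunits shared by all enzymes (bottom) against the medians of ribosome biogenesis genes (left) and of ribosomal protein genes (right), with 1 labelled point per line. Pol I lies closest to a line with ribosome biogenesis (r = 0.952) and the common subunits with ribosomal proteins (r = 0.929).

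Among other genes, the closest to the Pol I median were URA7 (r = 0.958 over 23 lines), which makes CTP, MIS1 (0.946), of folate metabolism in mitochondria, NOP4 (0.942) and POL5 (0.941), which act in ribosome synthesis, and TRM82 (0.935), of tRNA methylation. The next were MSB2, PRS5, SNU13, PUS1 and GCD10. The closest to the Pol III median were NOP13 (0.929), YTM1 (0.915), RLP24 (0.908) and GCD10 (0.903), and GCD10, URA7, PRS5, TRM82 and NOP4 were among the 10 closest to both. For the common subunits, a profile chosen after its values were seen, the closest was CLB5, a cyclin (0.955), and 6 of the 10 closest were ribosomal protein genes.

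Of 50 other genes of the transcription machinery and its regulators, 4 had a called mean (3 positive, 1 negative), against 9.22% of all features, and 12 had an unadjusted p under 0.05, against 24.3%. Both shares were about those of the whole table. TFC4, of the Pol III factor TFIIIC, had a mean of 0.25 ± 0.05 (SE, n = 23; limma, adjusted p = 0.0037), above 0 in 20 of the 23. TOA2, of the Pol II factor TFIIA, had 0.23 ± 0.07 (limma, adjusted p = 0.0298), and SSL2, a TFIIH helicase, had 0.14 ± 0.04 (adjusted p = 0.0188). HMO1, a protein bound along ribosomal DNA, had -0.21 ± 0.06 (limma, adjusted p = 0.0290). Among regulators of ribosome synthesis none of 7 was called, and their correlations with the Pol I median had no common sign by role. Among activators, IFH1 was at 0.660, FHL1 at 0.558 and SFP1 at -0.599. Among repressors, DOT6 was at -0.729, STB3 at -0.664, CRF1 at 0.234 and TOD6 at 0.440. MAF1, the repressor of Pol III, was at -0.591 with the Pol III median and at -0.635 with the Pol I median.

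A few lines had whole chromosomes away from 0, which bears on genes located there. The median of chromosome IX was 0.32 in line 49 and 0.25 in line 50, where RPB3, the Pol II gene on that chromosome, was at 0.27 and 0.23. SSL2 is also on chromosome IX and was highest in line 49 (0.55). In line 20, the medians of chromosomes VI, VIII and XIII were -0.23, -0.22 and -0.24, and the genes there were RPO41 at -0.30, RPC10 at -0.59, RRN9 at 0.08 and RRN11 at -0.07. With each chromosome's median subtracted, the calls for RPO21, RRN5 and RRN10 were unchanged.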

How the data were processed

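Per the labels, cDNA of each line and of YPS183 was labelled with a pair of Alexa Fluor dyes and hybridised in a common reference design without dye swap. The deposited table holds normalized values, read here as log2 ratios; the sources used here do not say how background was corrected, how spots were filtered or whether a column averages the biological replicates named in the design text. The table has 6334 features, 23 lines and no missing value. Features were paired with R64 gene symbols by systematic name, 5623 exactly and 194 with a restored hyphen, and 517 were not paired. The polymerase genes, roles and comparison lists were chosen with earlier results of these data known.

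Means over lines and single-line departures were fitted with limma 3.58.1 (R 4.3.3) on the whole table, two-sided, and adjusted by Benjamini-Hochberg. Full statistics go to genes with a called mean or departure, to the 2 highest SDs of each role and to the lowest SD. A departure test takes the tested line to have the spread of the rest, and p-values measure the spread between lines only. The scripts were tested on simulated data. Alternatives were other scalings, weights, priors, chromosome centring and left-out lines. Signal over background and promoter sequences were not used here.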

Additional observations from a re-analysis of the deposited data

How the results depend on the processing

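The number of genes with a called mean was 2, but 7 with array weights and 5 without lines 10 and 40, and between 1 and 4 with each line left out in turn. With array weights the calls were RPA190, RPA14, RRN5, RRN6, RPO21, RPB8 and RPB10, and without lines 10 and 40 they were RPA190, RPA14, RRN5, RPO21 and RPB10. Without line 10 alone, RPA190 and RPA14 joined RRN5 and RPO21. Departures numbered 1, but 0 with arrays scaled to a common median absolute deviation. The median SD of 0.313 was 0.276 without lines 10 and 40, an alternative added after the data were seen. Removing the leading component, also added after, gave mean correlations of 0.0856 for Pol I, -0.0611 for Pol II, 0.0680 for Pol III, 0.636 for the common subunits and 0.0503 for the Pol I factors. It gave correlations with ribosome biogenesis of 0.352 for Pol I, 0.156 for Pol II, 0.566 for Pol III and -0.114 for the common subunits. Spearman's rho for that relation was 0.979 for Pol I and 0.849 for the common subunits. Values after removal do not rank the groups, which followed the component to differing degrees. Other signs turned under removal of the component for the stress median (Pol I 0.175, Pol II 0.244, subunits of Pol I and Pol III 0.0728, common subunits 0.530) and for the ribosomal protein median (Pol III -0.177, Pol I factors -0.559, RPO41 0.0869). Without the 2 farthest lines, which are lines 10 and 40, the Pol I factors had 0.510 with ribosomal proteins in place of 0.311. The cause was not tested, beyond the component's own construction from the same table. No paired analysis was possible because the lines form 1 group. No column repeats a line, so the precision of a single ratio is unknown.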
